A study of Mus musculus with 8 samples.

Results

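MHC class I presentation was examined through 10 genes in cells sorted from injured mouse epidermis: B2m, H2-K1, H2-D1, H2-Q7, H2-T23, Tap1, Tap2, Tapbp, Psmb8 and Nlrc5. They were chosen by name, as the chains, peptide loading genes and transactivator of the pathway, and each was found through its Ensembl identifier among the 46078 genes of the deposited count table. All 10 passed the filter on low counts, which 16495 genes passed. No member was called between libraries with and without regulatory T cells. In that comparison all 10 estimates were positive, that is higher without these cells, but only 7 of 10 were with DESeq2 size factors. All 10 members had lower mean levels in the second of 2 experiments than in the first. There 3 members passed the threshold, beside 1.62% of all genes tested, and these calls ended when any 1 of 7 libraries was left out.

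Class I molecules show peptides from the inside of a cell to CD8 T cells and natural killer cells. Proteasomes cut proteins into peptides, the TAP transporter pumps these into the endoplasmic reticulum, and tapasin holds an empty class I heavy chain at the transporter until a peptide is bound and the complex with beta-2-microglobulin can leave for the surface. Interferons raise most genes of the pathway, in part through the transactivator NLRC5 acting on the promoters of the heavy chains, beta-2-microglobulin and the transporter. Quiescent hair follicle stem cells have been described as low in class I, and the growing hair bulb as a site of immune privilege.

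The cells came from reporter mice of the strain given as Lg5-egfp-ires-creert2/R26-tdTomato, in which the Lgr5 locus drives GFP and a tamoxifen-activated Cre and the Cre switches on tdTomato, so that Lgr5 cells of the hair follicle and their progeny carry the mark. All 8 libraries came from mice with skin barrier injury. In 4 libraries regulatory T cells (Treg) were present (Treg-sufficient), and in the other 4 they had been removed (Treg-depleted). Each condition has 2 libraries from experiment 1 (replicates 1 and 2) and 2 from experiment 2 (replicates 3 and 4). The sources used here do not give the means of depletion, the time after injury, the age and sex of the mice or the number of animals per library, so the tests measure the spread between these libraries, which may be technical in part.

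Libraries held 22330729 to 29975347 counts assigned to genes. Keratinocyte markers (Krt5, Krt14, Trp63) summed to between 10542 and 23118 counts per 1000000 counts (CPM), on library sizes scaled by TMM. On the same scale, hair follicle stem cell markers (Lgr5, Cd34, Krt15, Sox9, Lhx2) summed to between 4680 and 9379 CPM. Of 8 markers of leukocytes and T cells, 6 (Ptprc, Cd3d, Cd3e, Cd3g, Cd4, Cd8a) had at most 13 counts in any library, while the T cell receptor constant genes Trac and Trbc2 had 0 to 61 and 369 to 715. On library totals without scaling, Xist stood at 2713 CPM in Treg-sufficient replicate 2 and 72.0 CPM in Treg-depleted replicate 2, against 0.967 to 2.26 CPM in the other 6 libraries. Genes of the Y chromosome summed to 23.6 CPM in Treg-sufficient replicate 2 but 340 CPM in Treg-depleted replicate 2, against 349 to 449 CPM in the other 6. The comparisons and the likeness between genes are also given without replicate 2 of both conditions.

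In GRCm38, 8 of the members lie in or near the MHC on chromosome 17. H2-K1 (ENSMUSG00000061232, 33996017 to 34000347, minus strand) and Tapbp (ENSMUSG00000024308, 33915899 to 33929292, plus) are at its proximal end. Tap1 (ENSMUSG00000037321, 34187553 to 34197225), Psmb8 (ENSMUSG00000024338, 34197721 to 34201454) and Tap2 (ENSMUSG00000024339, 34203527 to 34216321) follow each other on the plus strand. H2-D1 (ENSMUSG00000073411, 35262730 to 35267499, plus), H2-Q7 (ENSMUSG00000060550, 35439155 to 35443773, plus) and H2-T23 (ENSMUSG00000067212, 36029773 to 36032855, minus) lie farther along. B2m (ENSMUSG00000060802) is on chromosome 2 from 122147686 to 122153083 and Nlrc5 (ENSMUSG00000074151) on chromosome 8 from 94434356 to 94527272, both on the plus strand. All are annotated as protein coding, and counts are over their exons.

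RefSeq promoter windows (GRCm38.p6, 250 bases before to 50 after a start) were found for 8 of the 10 members. Parts of 4 are shown: those of the 3 members called between experiments, which carry the same 9 letters, and that of B2m, which matches the interferon pattern searched. H2-K1, H2-Q7 and B2m are given for the 250 bases before the start, and H2-D1, whose RefSeq start lies inside the annotated span of the gene, for the match and 10 bases on either side. Capitals mark matches to the kappa-B-like motif GGGNNTTCC and to the interferon-stimulated response element core GAAANNGAA, searched on both strands.
H2-K1, chr17:34000348-34000597, minus strand: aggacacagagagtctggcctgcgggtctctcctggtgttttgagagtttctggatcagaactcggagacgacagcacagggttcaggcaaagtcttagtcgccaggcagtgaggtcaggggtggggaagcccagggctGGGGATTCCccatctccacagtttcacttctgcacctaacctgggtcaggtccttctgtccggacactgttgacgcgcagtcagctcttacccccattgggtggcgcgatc
H2-D1, chr17:35262913-35262941, plus strand: gcccagggctGGGGATTCCccatctcctc
H2-Q7, chr17:35438905-35439154, plus strand: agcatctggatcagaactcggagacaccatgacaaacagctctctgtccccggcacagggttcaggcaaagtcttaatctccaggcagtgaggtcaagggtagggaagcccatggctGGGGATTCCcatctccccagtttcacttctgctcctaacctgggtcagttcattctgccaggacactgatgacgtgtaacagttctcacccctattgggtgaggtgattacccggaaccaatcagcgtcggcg
B2m, chr2:122147437-122147686, plus strand: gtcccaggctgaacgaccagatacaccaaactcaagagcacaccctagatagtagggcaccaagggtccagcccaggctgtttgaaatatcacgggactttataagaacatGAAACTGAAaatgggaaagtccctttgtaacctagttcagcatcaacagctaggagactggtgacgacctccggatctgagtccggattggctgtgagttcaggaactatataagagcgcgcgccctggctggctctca
The letters GGGGATTCC began 111 bases before the start in the H2-K1 window shown, 171 before in H2-D1 and 133 before in H2-Q7. H2-K1 has another RefSeq start, from which they began 125 bases before. Over all windows of 300 bases, 5.82% of 32817 held the kappa-B-like motif, against these 3 of 8 members. The letters around the match were nearly the same in these 3 heavy chains, so they do not count as 3 separate occurrences. The percentage also counts windows, whereas the members are counted by gene. The interferon pattern GAAANNGAA was found in B2m and H2-T23 (8.55% of all windows). Other spellings of the element were not searched, so a window without this match may still hold one. The cyclic AMP response motif TGACG was found in B2m, H2-K1, H2-D1, H2-Q7 and Tap1 (20.8%), and CCAAT in 7 members, all but Psmb8 (37.4%). The windows were matched by letters only, and no binding was measured.

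Per kilobase of merged exon, B2m, the light chain shared by all class I molecules, was the most abundant member, at 542 ± 159 CPM per kb (SD, n = 8), higher than 99.8% of the genes compared. The classical heavy chains followed, with H2-D1 at 154 ± 49.6 and H2-K1 at 144 ± 61.8 CPM per kb; H2-D1 was the higher in 6 of 8 libraries, and their difference lay within their spread. H2-T23, which encodes Qa-1, a nonclassical chain read by natural killer cells, stood at 35.7 ± 7.90 CPM per kb. Tapbp (22.6 ± 8.74) and Tap1 (16.3 ± 2.93) came next, with Tapbp the higher in 7 of 8 libraries. H2-Q7, a Qa-2 chain, and Tap2 were alike on this scale (9.64 ± 5.81 and 9.14 ± 4.83), with H2-Q7 the higher in 3 of 8 libraries. Nlrc5 (7.13 ± 2.78) and Psmb8 (4.66 ± 2.39) were the lowest, Nlrc5 above Psmb8 in 8 of 8 libraries. B2m over H2-D1, H2-K1 over H2-T23 and H2-T23 over Tapbp also held in 8 of 8 libraries.

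Levels of the heavy chains are uncertain where reads cannot tell copies apart, since reads aligned to several places were not counted. Of all 50-base stretches of their annotated transcripts, 26.4% in H2-Q7, 13.6% in H2-T23, 12.8% in H2-D1 and 9.63% in H2-K1 also occur in transcripts of another gene, against none in B2m and Nlrc5. Genes on the opposite strand overlap 24.9% of the exon length of Tapbp, 14.7% of that of Psmb8 and 14.1% of that of Tap2 (the largest single overlap of each), and the sources used here do not say whether counting was by strand.

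Single values are CPM on library sizes scaled by TMM, with Treg-sufficient replicates 1 to 4 first and Treg-depleted replicates 1 to 4 second. B2m stood at 453, 688, 379.9 and 347 CPM in Treg-sufficient and at 668, 449, 361 and 382 CPM in Treg-depleted libraries. All 4 libraries of experiment 1 exceeded all 4 of experiment 2, and the conditions overlapped. H2-K1, which presents peptides to CD8 T cells, had 409.7, 689, 294 and 245 CPM with Treg and 687, 483, 273 and 297 CPM without. For H2-D1, the other classical chain, the values were 391, 600.5, 299 and 294 CPM with Treg and 559.7, 452, 273 and 309 CPM without. In both, the order was the one seen for B2m: Treg-sufficient replicate 2 highest, Treg-depleted replicate 1 next, and every library of experiment 2 below every library of experiment 1. H2-Q7 had 39.0, 83.7, 16.1 and 21.2 CPM against 73.2, 42.5, 28.6 and 24.7 CPM. Its lowest library of experiment 1 was again above its highest of experiment 2. H2-T23 was ordered otherwise: its 76.1, 132, 90.1 and 86.3 CPM with Treg and 143, 98, 101 and 98.7 CPM without put Treg-sufficient replicate 1, of experiment 1, below all of experiment 2.

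Tap1 and Tap2 encode the subunits of the peptide transporter. Tap1 had the smallest ratio of highest to lowest library among the members (1.65), at 83.3, 105, 86.3 and 81.4 CPM in Treg-sufficient and 122, 74.0, 80.5 and 80.4 CPM in Treg-depleted libraries. Both its highest and its lowest library belonged to experiment 1 and to the Treg-depleted condition. Tap2 ran at 26.9, 41.3, 22.3 and 21.4 CPM with Treg and 73.8, 44.6, 22.1 and 24.1 CPM without. Here the 4 libraries of experiment 1 lay above all of experiment 2, and within experiment 1 both Treg-depleted libraries lay above both Treg-sufficient ones. Tapbp, which encodes tapasin, gave 64.8, 99.7, 54.1 and 65.7 CPM with Treg and 141, 111, 63.6 and 54.9 CPM without. It was ordered by condition within experiment 1 like Tap2, and its experiments overlapped only through Treg-sufficient replicate 1, which lay below Treg-sufficient replicate 4. Psmb8, the immunoproteasome subunit LMP7, stood at 12.7, 19.1, 14.0 and 8.87 CPM against 33.1, 18.9, 8.72 and 10.6 CPM. Nlrc5, the class I transactivator, stood at 51.6, 83.5, 36.1 and 43.8 CPM against 108, 52.0, 51.4 and 57.9 CPM. In both, Treg-depleted replicate 1 was the highest library, and conditions and experiments overlapped.

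**Figure D1:**
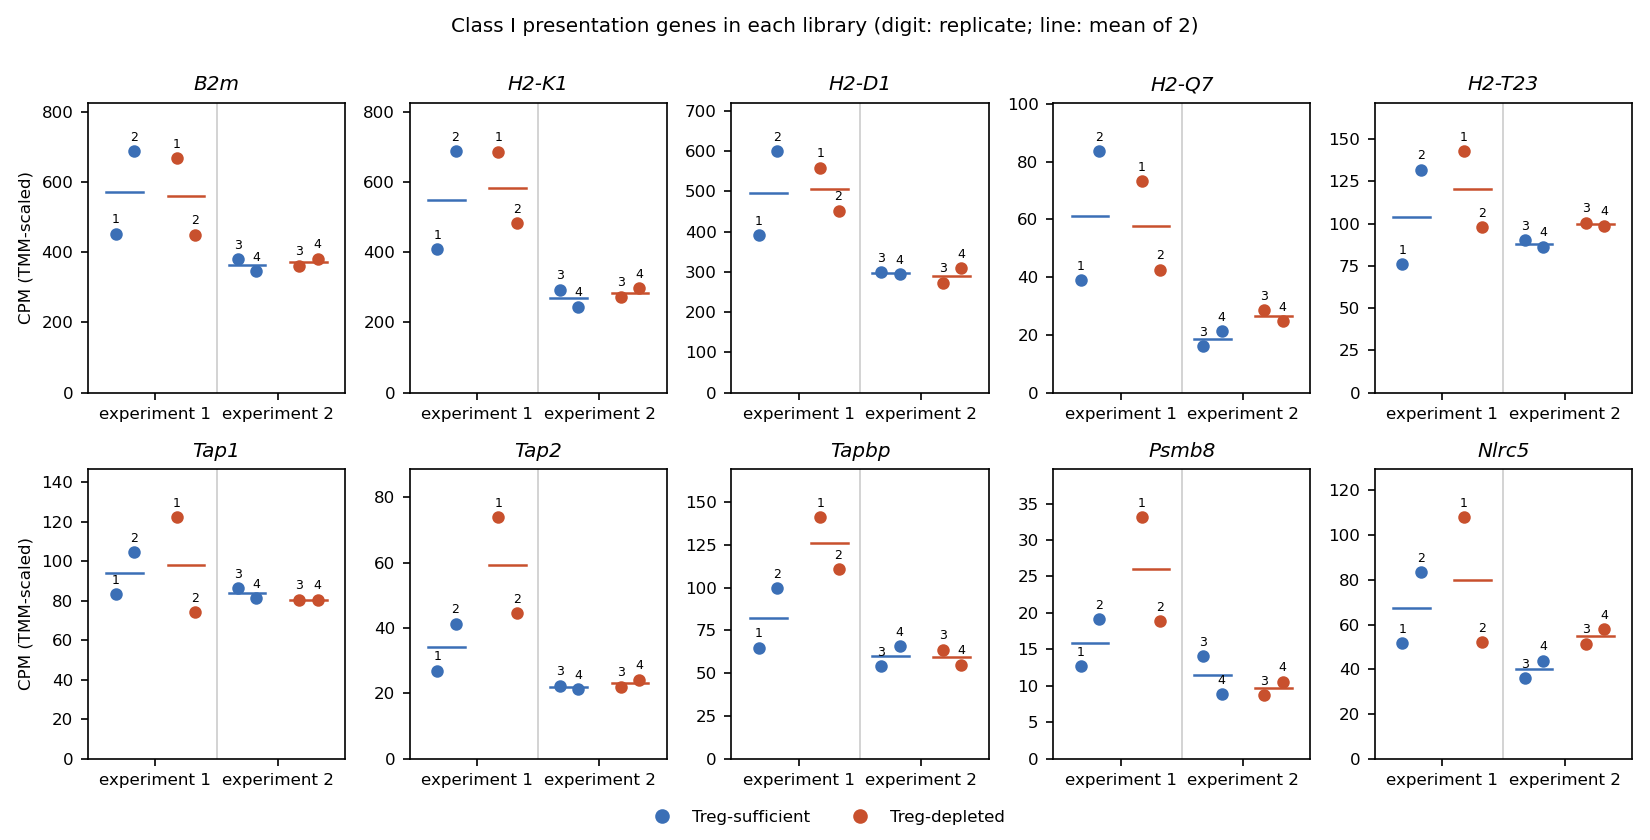
Level of each member in each library, in CPM on TMM-scaled library sizes (vertical axis from 0), by experiment and by condition (blue, Treg-sufficient; red, Treg-depleted), with the replicate number over each point and a line at the mean of each 2. Treg-sufficient replicate 2 and Treg-depleted replicate 1 are the highest pair of experiment 1 for 8 of 10 members, and the points of experiment 2 lie close together.

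The members varied together over the libraries. Treg-depleted replicate 1 was among the top 2 of the 8 libraries for all 10 members and highest for 6, and Treg-sufficient replicate 2 was among the top 2 for 8 members and highest for the other 4. In experiment 1 these libraries, 1 of each condition, were the highest pair for 8 members, while the Treg-depleted pair was highest for Tap2 and Tapbp. Pearson's r between a member and the mean of the other 9, after standardising log2 CPM, ranged from 0.789 for Tap1 and 0.820 for H2-T23 to 0.954 for H2-K1 and 0.962 for B2m over 8 libraries. Without replicate 2 of both conditions it ranged from 0.771 for H2-T23 to 0.998 for Tap2 over 6 libraries, and Treg-depleted replicate 1 was the highest of the 6 for all 10 members. This is a description: the points share their libraries and the experiment step. Within experiment 1 the highest library exceeded the lowest 1.53-fold for B2m and 2.74-fold for Tap2, the extremes among the members, and within experiment 2 the corresponding extremes were 1.07-fold for Tap1 and 1.77-fold for H2-Q7.

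The main question of the design was whether the presence of Treg altered these cells after injury. No member was called between conditions: the count was 0 of 10, beside 0% of all genes tested (0 of 16495 in edgeR's quasi-likelihood test at an adjusted p under 0.05). Without adjustment, 0 members and 1175 genes had p under 0.05. The libraries of the conditions overlapped for every member, where 1.27% of all genes lay wholly higher and 1.05% wholly lower in Treg-depleted libraries. RNA of sorted cells in bulk cannot tell fewer cells of a type from less RNA per cell.

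Among the chains, B2m averaged 467 ± 154 CPM with Treg and 465 ± 140.5 CPM without (SD, n = 4 each), a log2 fold change of 0.00 with SE 0.17 and a 95% interval from -0.38 to 0.38 (edgeR adjusted p = 0.999). H2-D1 gave 396 ± 143 CPM with Treg and 398 ± 133 CPM without, with an interval from -0.33 to 0.34. H2-K1 (0.09, SE 0.18) and H2-Q7 (0.21, SE 0.27) were within their standard errors of 0, with edgeR adjusted p = 0.925 and 0.868. H2-T23 (0.19, SE 0.18, edgeR adjusted p = 0.804) was slightly beyond its standard error, with an interval from -0.21 to 0.60. Tap1 averaged 88.9 ± 10.6 CPM with Treg and 89.3 ± 22.1 CPM without. Tap2 had the largest estimate, from 28 ± 9.19 CPM with Treg and 41.1 ± 24 CPM without, a log2 fold change of 0.44 (SE 0.22, interval from -0.06 to 0.95, edgeR adjusted p = 0.696). Nlrc5 followed at 0.35 (SE 0.24, edgeR adjusted p = 0.745), then Tapbp at 0.30 (SE 0.19, 0.730) and Psmb8 at 0.24 (SE 0.29, 0.854). A p above the threshold does not show that the conditions were alike: the intervals of Nlrc5 and Psmb8 reached up to 0.88 and 0.89.

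All 10 estimates were positive with TMM scaling, 7 of 10 with DESeq2 size factors, upper-quartile factors, DESeq2 itself or no filter (B2m, H2-D1 and Tap1 turned negative), 6 when Treg-sufficient replicate 1 was left out and 5 when Treg-depleted replicate 1 was. Their median was 0.20 beside 0.00 for all genes, and 0.04 and 0.02 without those respective libraries. Without replicate 2 of both conditions, all 10 were positive, with a median of 0.32, and 0 were called.

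**Figure D2:**
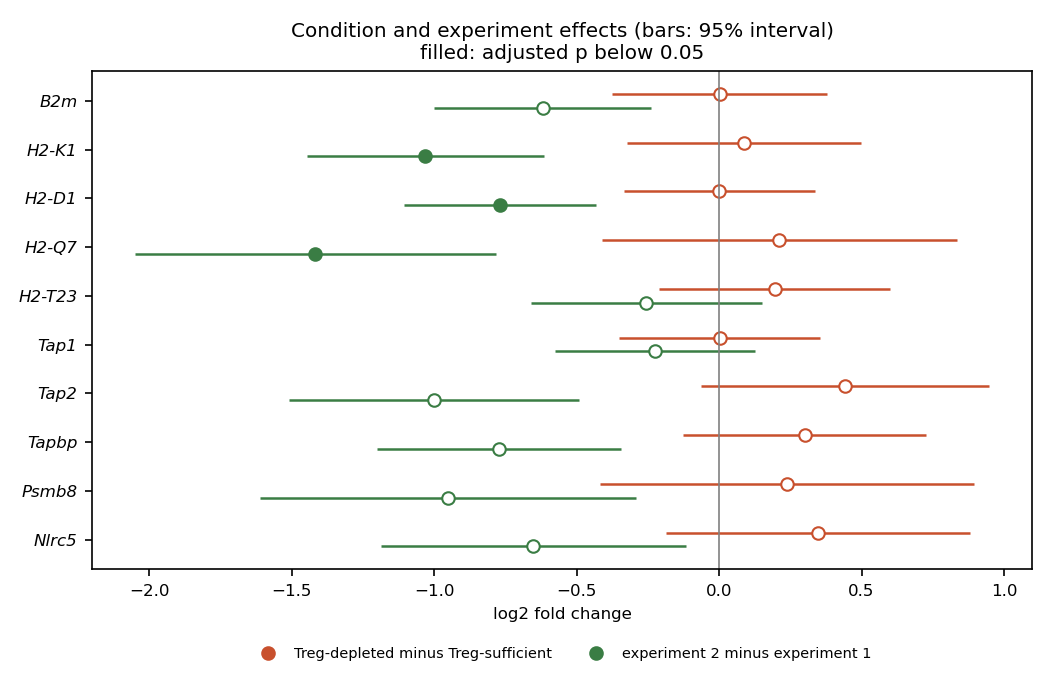
Log2 fold change of each member (horizontal axis) between conditions, Treg-depleted minus Treg-sufficient (red), and between experiments, 2 minus 1 (green), from a model with both terms over 8 libraries, with 95% intervals and filled points where edgeR's adjusted p was under 0.05. The condition intervals of all 10 members include 0, and the experiment intervals of 8 members lie wholly below 0, the exceptions being H2-T23 and Tap1, where 10.6% of all genes were lower at an unadjusted p under 0.05.

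Between the experiments, the 3 calls were all of heavy chains, 2 classical and 1 of the Qa group. H2-K1 averaged 277 ± 24 CPM in experiment 2 against 567 ± 143 in experiment 1 (SD, n = 4 each), a log2 fold change of -1.03 ± 0.18 (SE; edgeR adjusted p = 0.0446). H2-Q7 had the largest change, 22.7 ± 5.29 against 59.6 ± 22.2 CPM (-1.42 ± 0.28, edgeR adjusted p = 0.0484). H2-D1 was at 294 ± 15.0 against 501 ± 96.4 CPM (-0.77 ± 0.15, edgeR adjusted p = 0.0483). These 3 of 10 members were called lower, where 0.721% of all genes were called lower and 1.62% in either direction (119 and 268 of 16495). The smallest adjusted p of any gene was 0.0439, so all calls in this comparison lay just under the threshold.

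The other 7 members had lower means in experiment 2 and did not pass the threshold. B2m stood at 367 ± 16.7 against 565 ± 131 CPM (-0.62, SE 0.17, edgeR adjusted p = 0.0796), although its libraries did not overlap between experiments. Tap2 gave 22.5 ± 1.18 against 46.6 ± 19.7 CPM (-1.0, SE 0.22, 0.0600) and Tapbp 59.6 ± 5.93 against 104 ± 31.5 CPM (-0.77, SE 0.19, 0.0673). Psmb8 (-0.95, SE 0.29, edgeR adjusted p = 0.101) and Nlrc5 (-0.65, SE 0.24, 0.152) had estimates of like size with wider errors. H2-T23 (-0.26, SE 0.18, 0.458) and Tap1 (-0.23, SE 0.16, 0.452) were near 0. Libraries of experiment 1 were wholly above those of experiment 2 for 5 of 10 members (B2m, H2-K1, H2-D1, H2-Q7 and Tap2), beside 5.86% of all genes. The median over the members was -0.77 and that over all genes -0.02.

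Each member stayed negative in 15 of 15 alternative analyses, but the calls did not hold throughout. They ended when any 1 of the 7 libraries other than Treg-sufficient replicate 1 was left out (edgeR adjusted p from 0.0664 to 0.157 for H2-K1, H2-D1 and H2-Q7), and without Treg-sufficient replicate 1 Tap2 and Tapbp were called as well, 5 in all, beside 3.85% of all genes. Leaving out any of the 7 others gave at most 0.23% of all genes. Without both libraries of replicate 2, which include those with raised Xist, H2-K1 was at -0.95, H2-D1 at -0.68 and H2-Q7 at -1.26, each with adjusted p = 0.203. The call of H2-Q7 also ended with upper-quartile factors (edgeR adjusted p = 0.0524) and with limma-voom (limma adjusted p = 0.0557), and all 3 ended without the condition as a term (edgeR adjusted p from 0.0631 to 0.0739). DESeq2 called 7 members beside 13.1% of all genes, and edgeR without a filter on low counts called 8 beside 8.85%, with all of these members lower.

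Markers of other cells were compared between the experiments as well. The melanocyte markers Dct, Pmel, Tyrp1 and Mlana summed to 17.9 to 49.0 CPM in experiment 1 and 107 to 347 CPM in experiment 2. In experiment 2, 3 of these 4 were called higher, beside 149 of all 16495 genes tested. The sums of hair follicle stem cell markers overlapped (6834 to 9379 CPM in experiment 1 and 4680 to 7046 CPM in experiment 2), with 0 of 5 called: Cd34 (-1.63) and Krt15 (-0.71) had negative and Lgr5 (0.09), Sox9 (0.21) and Lhx2 (0.50) positive log2 fold changes. Keratinocyte markers overlapped too (11931 to 23118 and 10542 to 14846 CPM), as did those of T cells (22.4 to 27.4 and 15.0 to 24.6 CPM), macrophages and Langerhans cells (2.58 to 4.61 and 3.62 to 5.54 CPM), fibroblasts (19.2 to 89.1 and 48.6 to 103 CPM) and endothelium (1.62 to 3.83 and 1.63 to 8.58 CPM). The T cell sum was mostly Trbc2. Single markers could differ more than the sums. Of 6 fibroblast markers 0 were called, with 4 positive and 2 negative log2 fold changes. These ran from -0.84 for Col1a1 to 2.54 for Dcn (edgeR adjusted p = 0.0564). The part of these cell types in the lower class I values was not tested.

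Considered within each experiment, 2 libraries against 2, the condition estimates of experiment 1 differed in size among the members. The transport and loading genes Tap2 and Tapbp and the proteasome gene Psmb8 had the largest estimates, at 59.2 ± 20.7 CPM without Treg against 34.1 ± 10.1 CPM with Treg for Tap2 (SD, n = 2 each; 0.80 on the log2 scale, SE 0.28, edgeR adjusted p = 0.314), 126 ± 21.5 against 82.3 ± 24.6 for Tapbp (0.61, SE 0.23, 0.361) and 26.0 ± 10.1 against 15.9 ± 4.56 for Psmb8 (0.71, SE 0.35, 0.520). The chains B2m (-0.03), H2-D1 (0.03), H2-K1 (0.09) and H2-Q7 (-0.08) and the transporter gene Tap1 (0.06) were near 0, with H2-T23 at 0.21 and Nlrc5 at 0.24. None of the 10 members was called, beside 0.606% of all genes (100 of 16495), and 2 members, Tap2 and Tapbp, had an unadjusted p under 0.05, where 4.59% of all genes did so in that direction. Without both libraries of replicate 2, the estimate of Tap2 was 1.41. That fit leaves 1 library of each condition in experiment 1 and assumes that their spread is that of experiment 2. Both Treg-depleted libraries of experiment 1 lay above both Treg-sufficient ones for Tap2 and Tapbp, as they did for 18.6% of all genes, and wholly below for 0 members and 19% of all genes.

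In experiment 2 the estimates were 0.51 for H2-Q7, 0.45 for Nlrc5 and 0.18 for H2-T23, -0.25 for Psmb8, and between -0.06 and 0.08 for the other 6. The call count was 0 of 10 members and 0% of all genes in edgeR, with 0 members and 288 genes at an unadjusted p under 0.05. H2-Q7, H2-T23 and Nlrc5 lay wholly higher in Treg-depleted libraries (16.7% of all genes) and Tap1 wholly lower (15.9%). The difference between the condition effects of the experiments was tested as an interaction: it called 0 members and 0% of all genes, with 0 members and 923 genes under 0.05 unadjusted. Its estimates were -0.96 (SE 0.50) for Psmb8, -0.72 (SE 0.39) for Tap2 and -0.63 (SE 0.32) for Tapbp, each with edgeR adjusted p = 0.941, so the larger values of these genes in experiment 1 were not shown to differ from those in experiment 2.

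**Figure D3:**
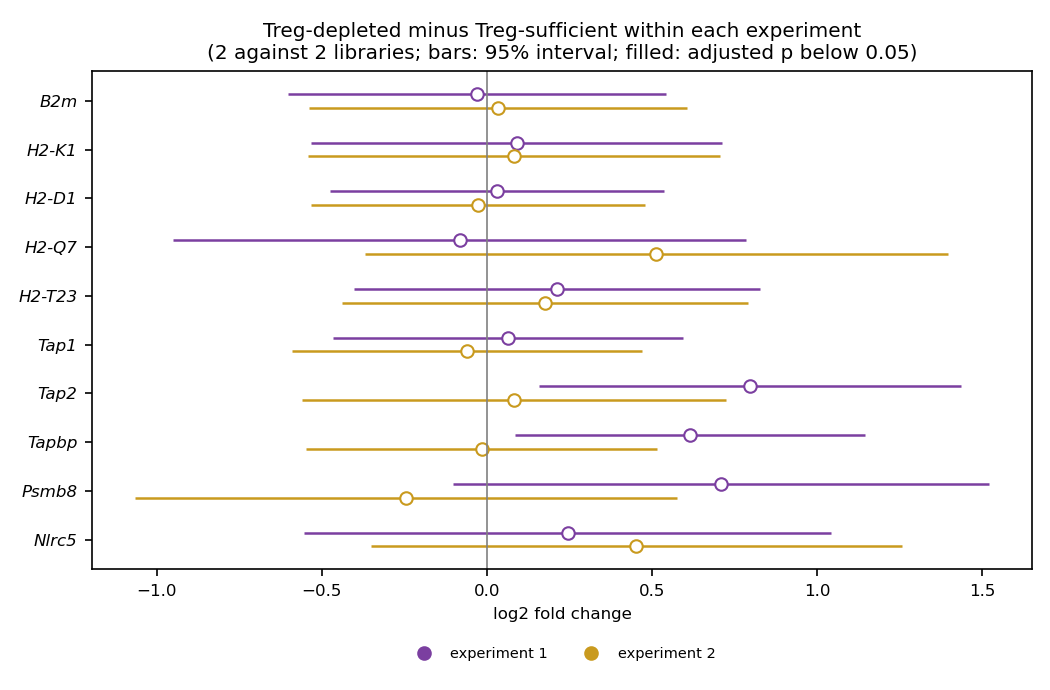
Log2 fold change between conditions (Treg-depleted minus Treg-sufficient, horizontal axis) of each member within experiment 1 (purple) and experiment 2 (yellow), 2 libraries against 2, with 95% intervals; no point is filled, as no adjusted p was under 0.05. The intervals of Tap2 and Tapbp in experiment 1 lie above 0 before adjustment, and the intervals of the experiments overlap for every member.

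The rest of the pathway was followed through 53 further genes in 6 lists, of which 50 were matched in the table and 46 passed the filter. Between conditions 0 of 46 were called, beside 0% of all genes. The 3 with the smallest p were Jak2, the kinase of the interferon gamma receptor (102 ± 10 CPM without Treg against 77.5 ± 8.22 CPM with Treg, log2 fold change 0.40, SE 0.11), Irf2, an interferon regulatory factor (0.56, SE 0.24), and Erap1, which trims peptides in the endoplasmic reticulum (0.37, SE 0.16), with edgeR adjusted p = 0.686, 0.694 and 0.696. The median of the 46 was 0.12, with 32 positive.

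Between experiments 0 of the 46 were called, beside 1.62% of all genes, and 33 were negative, with a median of -0.31. The other immunoproteasome and activator genes (Psmb9, Psmb10, Psme1, Psme2, Psme2b) were negative in 5 of 5, with a median of -0.62, while the constitutive catalytic subunits (Psmb5, Psmb6, Psmb7) had a median of 0.09. The 12 other heavy chains tested had a median of -0.65, with 9 negative. Smallest in p were H2-Q6, a Qa chain close in sequence to H2-Q7 and therefore uncertain (9.14 ± 2.47 CPM in experiment 2 against 25.6 ± 11.1 CPM in experiment 1, -1.50, SE 0.34, edgeR adjusted p = 0.0600), Erap1 (-0.66, SE 0.16, 0.0664) and Psmb10 (9.77 ± 2.91 against 21.9 ± 7.62 CPM in the same order, -1.14, SE 0.32, 0.0836). Medians closer to that of all genes (-0.02) were found for peptide loading (-0.04, 3 of 5 negative) and transcription of class I (-0.09, 8 of 13 negative). The list of interferon receptors and kinases had a median of -0.17, with 7 of 8 negative.

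**Figure D4:**
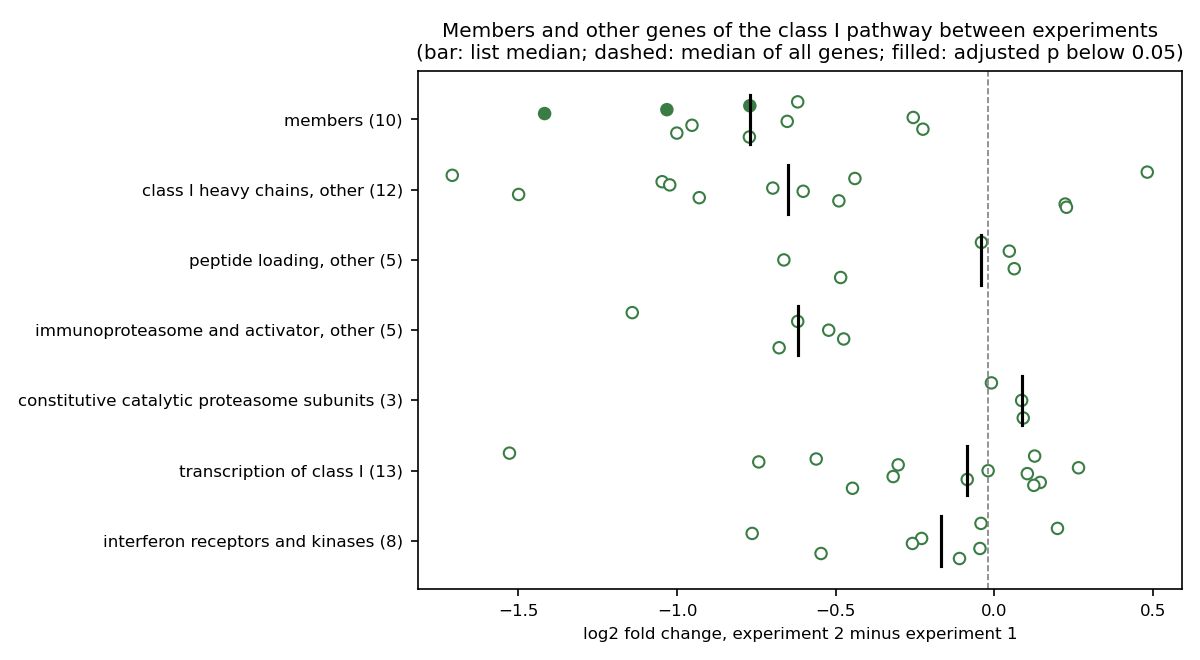
Log2 fold change between experiments, 2 minus 1 (horizontal axis), of the 10 members and of the 46 other pathway genes tested, 1 point per gene by list, with a bar at the list median, a dashed line at the median of all genes and filled points where edgeR's adjusted p was under 0.05. Members, other heavy chains and immunoproteasome genes have medians of -0.77, -0.65 and -0.62, the constitutive proteasome subunits 0.09.

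Of the 46 genes, 1 was called between conditions in experiment 1, beside 0.606% of all genes (100 of 16495). It was Irf1, an interferon-induced activator of class I promoters. It stood at 32.0 and 24.2 CPM in the Treg-sufficient and at 85.8 and 66.9 CPM in the Treg-depleted libraries of experiment 1, and at 35.2, 30.8, 32.5 and 27.5 CPM in experiment 2. In experiment 1 it rose by 1.44 on the log2 scale (SE 0.20, edgeR adjusted p = 0.0364), to 76.3 ± 13.3 from 28.1 ± 5.48 CPM (SD, n = 2 each). The call ended without any 1 library other than Treg-depleted replicate 2 (log2 fold change from 1.22 to 1.66, edgeR adjusted p from 0.0672 to 0.133), and the interaction with the experiment gave -1.58 (SE 0.29, edgeR adjusted p = 0.254). The order of the libraries in experiment 1 thus differed between Irf1, highest in both Treg-depleted libraries, and the heavy chains and B2m, highest in Treg-sufficient replicate 2 and Treg-depleted replicate 1.

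Outside the pathway, the genes whose pattern over the 8 libraries was most like the mean standardised pattern of the members were Tnip1 (Pearson's r = 0.991), Nfatc4 (0.980), Fam3a (0.978), Tspan8 (0.975) and Trim21 (0.972), among 12876 genes with a mean of at least 50 normalised counts. They were picked as the highest of all these values, and the libraries they share include the experiment step. Over the 6 libraries without replicate 2 of both conditions, r was 0.994 for Tnip1 and 0.973 to 0.983 for the other 4, but 5 different genes stood highest (Cxcl9, Zfp939, Entpd3, Il11ra1 and D230025D16Rik, at 0.995 to 0.999, named after their values were seen). The log2 fold changes between experiments were -0.40 for Tnip1, -1.0 for Nfatc4, -0.16 for Fam3a, -1.47 for Tspan8 and -0.77 for Trim21.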

How the data were processed

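RNA of sorted Lgr5-traced cells was made into TruSeq stranded mRNA libraries, per the labels' protocols, and the submitters' processing notes name TopHat2, SAMtools, HTSeq, DESeq2 and the build GRCm38.p4; the sources used here give no strand setting, read length or annotation release. The authors deposited 1 table of raw counts per Ensembl gene and library. Its tallies of reads without a gene (26.2% to 30.6% aligned to several places, 6.63% to 10.8% in no feature, 2.72% to 3.01% ambiguous) were left out of library sizes. Symbols, coordinates and exon lengths came from GENCODE M21 (GRCm38), which matched 45229 of 46078 genes. Promoters came from RefSeq (GRCm38.p6).

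Counts were filtered with filterByExpr (minimum count 10, by condition), scaled by TMM and fitted with edgeR 4.0.16 (quasi-likelihood F-test, R 4.3.3), with Benjamini-Hochberg adjustment over all 16495 genes and a threshold of 0.05. The first model held condition and experiment (5 residual degrees of freedom); the effects within experiments and their difference came from a model of 4 groups (4 residual degrees of freedom). The standard error is the log2 fold change divided by the root of F. Alternatives were DESeq2 size factors, upper-quartile factors, no filter, DESeq2 1.42.0, limma-voom (limma 3.58.1), each library left out, both replicates 2 left out, other covariates, and the letter of the sample titles as a replicate block. Depth was 22330729 to 29975347 counts per library; intervals cover the spread between libraries.

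Named were all members, pathway genes past the threshold, the 3 pathway genes with the smallest p in each of the comparisons of conditions and of experiments, and the 5 genes most like the members. The members and lists were chosen with earlier results of these data known. The alternatives for pathway genes, and the likeness between genes without replicate 2 of both conditions, were added after seeing the data.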

Additional observations from a re-analysis of the deposited data

Results flagged for a closer look

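Within groups of 4 libraries, a library standing far from the other 3 was looked for in 40 groups (each member in each condition and in each experiment), and chance alone marks about 5% of groups. Treg-depleted replicate 1 stood apart among the Treg-depleted libraries for H2-T23 (142.9 CPM), Tap1 (122.1 CPM) and Nlrc5 (107.9 CPM). Treg-sufficient replicate 3 stood apart among the libraries of experiment 2 for Tap1 (86.33 CPM), where the whole range was narrow.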

How the results depend on the processing

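Of 740 member values under the alternatives chosen in advance, 619 kept their direction and side of the threshold, 79 changed sign, 29 lost a call and 13 gained one; no value between experiments changed sign. The sign changes concern estimates that did not pass the threshold in the reported fit.

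Genes called between conditions numbered 84 with DESeq2 and 820 with no filter on low counts, against 0 reported, with 0 members in either. Between experiments 268 genes and 3 members became 2167 and 7 with DESeq2, 2443 and 8 with no filter, 2 and 0 without replicate 2 of both conditions, and 0 and 0 without the condition as a term; leaving out 1 library gave 0 to 651 genes and 0 to 5 members. In experiment 1 the 100 genes became 721 with DESeq2, 1152 with no filter (1 member, Tap2), 487 without replicate 2 of both conditions (1 member, Tap2) and 0 to 442 with 1 library left out. In experiment 2 DESeq2 called 1 gene and the fit with no filter 132, against 0. The interaction, at 0 genes, reached 182 with DESeq2, 534 with no filter, 89 without replicate 2 of both conditions and 0 to 9 with 1 library left out. The cause was not tested.

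Between conditions, log2 fold changes changed sign with DESeq2 size factors for B2m (-0.0080), H2-D1 (-0.0080) and Tap1 (-0.0082), with upper-quartile factors (-0.0046, -0.0066 and -0.0041), with no filter (-0.0091, -0.010 and -0.0088) and with DESeq2 (-0.0080, -0.0080 and -0.0082). Tap1 was at -0.011 with limma-voom and B2m at -0.0049 without the experiment number. In experiment 1 H2-D1 was at -0.0030 with upper-quartile factors and -0.0045 with no filter, and in experiment 2 Tapbp was at 0.0012 with upper-quartile factors. The interaction of H2-K1 was 0.0015 with DESeq2 size factors, 0.0015 with DESeq2, 0.041 with upper-quartile factors and 0.038 with no filter, and that of H2-T23 0.012 and 0.0073 in the last pair. Without replicate 2 of both conditions, B2m (0.52) and H2-Q7 (0.86) changed sign in experiment 1, as did the interactions of B2m (-0.49), H2-Q7 (-0.35) and Nlrc5 (-0.57).

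With 1 library left out in turn, the lone library of an arm is assumed to vary like the other groups. Values between conditions then spanned -0.12 to 0.12 for B2m, -0.048 to 0.24 for H2-K1, -0.12 to 0.11 for H2-D1, -0.18 to 0.10 for Tap1 and -0.053 to 0.47 for Psmb8. In experiment 1 they spanned -0.37 to 0.26 for B2m, -0.24 to 0.47 for H2-K1, -0.25 to 0.33 for H2-D1, -0.55 to 0.53 for H2-Q7, -0.13 to 0.62 for H2-T23, -0.37 to 0.34 for Tap1 and -0.40 to 0.64 for Nlrc5. In experiment 2 they spanned -0.031 to 0.100 for B2m, -0.042 to 0.22 for H2-K1, -0.12 to 0.059 for H2-D1, -0.15 to 0.13 for Tapbp and -0.54 to 0.12 for Psmb8. Interactions spanned -0.23 to 0.40 for B2m, -0.39 to 0.32 for H2-K1, -0.36 to 0.22 for H2-D1, -0.021 to 1.06 for H2-Q7, -0.45 to 0.31 for H2-T23, -0.41 to 0.31 for Tap1 and -0.19 to 0.85 for Nlrc5.

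Sample letters recur in both conditions. Taking the letter as a replicate block called 0 genes and 0 members between conditions, 9 of 10 members stayed positive, and Tap1 was at -0.016. Deviations from condition means correlated by 0.206, 0.218, 0.190 and 0.396 for the pairs sharing a letter, which includes the experiment. Deviations from the means of condition and experiment correlated by -0.175 for letters A and B and -0.185 for C and D. With 2 libraries per group, both letters of an experiment must give the same value. These values therefore cannot decide whether the letters pair samples within an experiment.

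With 2 libraries per condition and experiment, the intervals are wide beside the estimates, and the calls between experiments lie at the threshold.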
